A study of Homo sapiens with 8 samples.

Results

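The genes described here make the peptides that MHC class I molecules show at the cell surface. They are the 3 catalytic subunits of the immunoproteasome (PSMB8, PSMB9 and PSMB10), the 2 subunits of its PA28 activator (PSME1 and PSME2), the peptide transporter (TAP1 and TAP2), the loading chaperone tapasin (TAPBP) and the trimming aminopeptidases of the endoplasmic reticulum (ERAP1 and ERAP2). They were selected by gene symbol as a pathway, with earlier results of these data known, and all 10 were found among the 59050 genes of the count files. RNA sequencing was done on 8 xenografts of the established lung cancer cell line H2122, of human origin, and every tumour had received vehicle. The 4 parental tumours were labelled wild type and the other 4 carried a knockout of SMARCA4, the ATPase that drives SWI/SNF chromatin remodelling. The series title asks how loss of SMARCA4 bears on tumour immunity and STING signalling. The labels do not say how the knockout was made, whether it is 1 clone, which mouse strain was the host, how old the mice were, or whether each tumour came from its own mouse, so p-values measure only the spread between these tumours. The extraction text speaks of cells, while the source given for every sample is a xenograft.

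The proteasome cuts cytosolic proteins into peptides. Interferon-gamma induces replacement subunits for its 3 active sites, and particles built with them cut more often after residues that suit the groove of class I molecules. The PA28 activator opens the core particle, TAP carries the peptides into the endoplasmic reticulum, ERAP1 and ERAP2 trim them, and tapasin holds class I molecules at TAP until a peptide is bound. Interferon regulatory factors (IRFs) bind GAAA repeats in many of these promoters, and NLRC5 drives class I genes together with several members of the pathway.

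Gene counts ranged from 19785922 to 23191698 per library, and 79.1% to 85.2% of all reads were assigned to a gene. The targeted gene followed the labels in all 8 libraries: SMARCA4 lay at 198 to 235 CPM (gene counts relative to the TMM-scaled library size) in parental and at 22.3 to 31.1 CPM in knockout tumours. The cancer cell label was checked with 8 epithelial and lung markers, which summed to 5757 to 6930 CPM in parental and 4635 to 6238 CPM in knockout tumours, mostly from keratins. The sums hide differences between single markers. KRT7, KRT19 and EPCAM were lower in every knockout tumour than in any parental tumour, while KRT8, KRT18, CDH1 and NAPSA overlapped. KRT7 was at 1584 to 1802 CPM in parental and 851 to 1097 CPM in knockout tumours. Of the 8 markers, the lung lineage factor NKX2-1 had no count in any library, and NAPSA was at 0.680 to 1.22 CPM. In such bulk libraries, fewer cells of a type and less RNA per cell cannot be told apart.

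The promoter sequences show a feature that most of the 10 genes share apart from their function. Windows from 250 bases before to 50 bases after each RefSeq transcript start (GRCh38.p14) were searched on both strands for an IRF element (GAAANNGAA), a GAS element, an interferon-gamma response element (TTCNNNGAA), and an SP1 box (GGGCGG), and overlapping matches were all counted. The 10 genes matched 14 windows. An IRF element was found in 9 of the 14 windows and in 9 of the 10 genes, all but PSMB9, while 8.11% of all 35116 windows of the RefSeq table hold one. Each of the 9 promoters held a match whose 2 free bases were GC (PSMB8, PSMB10, PSME1, PSME2, TAP1 and TAP2) or GT (TAPBP, ERAP1 and ERAP2), forms that 0.746% of all windows hold. These forms were not among the planned motifs but are those found in these promoters, which all windows include, so their rarity is partly built in. The stretches below are shown because they are the sequence feature that most of the genes have in common. They run 5′ to 3′ on the strand that reads GAAA, with the element in capitals.
PSMB8: aggaagtGAAAGCGAAagccaca
PSMB10: taaaggcGAAAGCGAAagcagga
PSME1: gcgaaggGAAAGCGAAagcggta
PSME2: ggggagtGAAAGCGAAagcccgg
TAP1: tttagggGAAAGCGAAATCGAAagcggcc
TAP2: gggaagcGAAAGCGAAagctgcc
TAPBP: tttggagGAAAGTGAAAGTGAAaggagga
ERAP1: caggaccGAAAGTGAAagtggag
ERAP2: tagaacaGAAAGTGAAagcaaaa
In TAP1 and TAPBP the capitals hold 2 overlapping matches, and the second match in TAP1 has neither GC nor GT at its free bases.

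The element lay close to the transcript start in most of these genes. It began 3 bases before the start in PSMB8 (chr6:32844035-32844057, plus strand as printed, opposite to the gene), 21 before in PSMB10 (chr16:67936856-67936878, minus) and 28 before in PSME2 (chr14:24146623-24146645, minus). It began 6 bases after the start in PSME1 (chr14:24136193-24136215, minus, opposite to the gene) and 3 after in ERAP1 (chr5:96807927-96807949, plus, opposite to the gene). It began 58 bases before the start in TAP2 (chr6:32838782-32838804, minus), 20 before in TAPBP (chr6:33314077-33314105, minus) and 30 before in ERAP2 (chr5:96876463-96876485, plus). TAP1 was the farthest, at 133 bases (chr6:32853816-32853844, plus, opposite to the gene). The same 11 bases, the element with the 2 bases that follow it, stand in the promoters of PSMB8, PSMB10, PSME1, PSME2 and TAP2 and in 22 windows of the table in all (0.0626%). This stretch too was taken from these promoters and was not a planned motif.

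PSMB9 and TAP1 face away from each other, with 487 bases between their starts. The TAP1 element lies 355 bases from the PSMB9 start, outside the window searched for PSMB9, so the missing match says only that these letters are not in that window. GAS elements were found in PSMB8 and TAP1 only (7.66% of all windows hold one), and SP1 boxes in 7 of the 10 genes (45% of windows). A match of letters is a description and not a site shown to be bound.

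**Figure D1:**
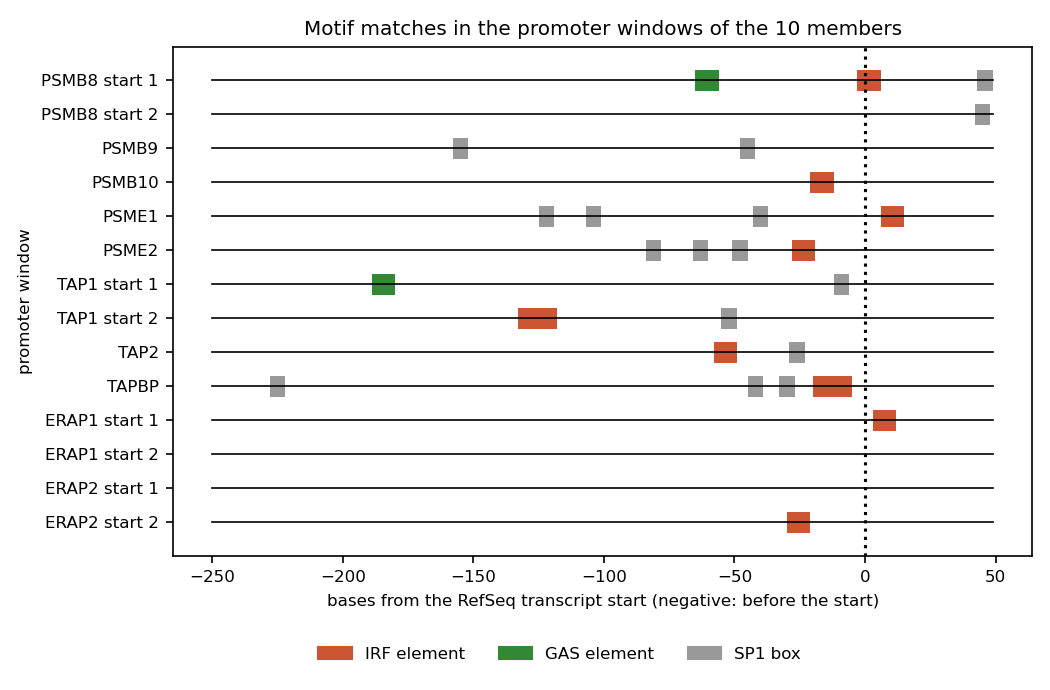
Matches of the IRF element, the GAS element and the SP1 box in each promoter window, in bases from the RefSeq transcript start (dotted line, negative before it). IRF elements (orange) sit from 133 bases before to just after the start, with none in the PSMB9 window.

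Genes of the set lie in clusters. PSMB8, PSMB9, TAP1 and TAP2 sit side by side in the class II region of the MHC on chromosome 6 (32821833 to 32859585, GENCODE 29 on GRCh38), and TAPBP lies on the same chromosome at 33299694 to 33314387. PSME1 (24136158 to 24138967) and PSME2 (24143362 to 24147570) are neighbours on chromosome 14, ERAP1 (96760810 to 96808100) and ERAP2 (96875939 to 96919716) on chromosome 5, and PSMB10 (67934502 to 67937087) stands alone on chromosome 16. Some exons overlap other genes: 20.6% of the exonic bases of PSMB8, 34.8% of PSMB10 and 32.3% of TAP2 are shared, mainly with PSMB8-AS1, AC040162.1 and AL669918.1. The counting and strand options were not given in the sources used here, so reads on shared bases may be missing from these genes. That makes their counts and their levels per kilobase less certain. Reads assigned to these partners were at most 12 to 52 per library for PSMB8-AS1, 2 to 10 for AC040162.1 and 0 for AL669918.1.

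In SMARCA4 knockout tumours 5 of the 10 genes were lower than in parental tumours and none was higher. By edgeR's quasi-likelihood test with Benjamini-Hochberg adjustment over 16219 genes (adjusted p under 0.05), PSMB8, PSMB10, PSME1, TAP2 and ERAP2 fell. Among all genes tested, 27% were called, 14.1% lower and 13% higher. All 10 log2 fold changes were below 0, where 49.5% of all genes were, and their median was -0.39 against 0 for all genes. Without parental tumour 2, 7 of the 10 were below 0, and without parental tumours 2 and 3 together, 6 were. In 5 of the 10 genes every knockout tumour lay below every parental tumour, which was so for 15.3% of all genes tested. These were the same 5 genes that were called, and the call and the separation rest on the same values. Without knockout tumour 1 or without knockout tumour 2, 3 of the 10 were called (PSMB8, PSMB10 and PSME1), all of them lower. Of all genes, 21.2% and 21.6% were called in these fits, and 11.2% and 11.5% were called lower.

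PSMB8, the chymotrypsin-like subunit of the immunoproteasome, had the largest fall of the 10. It stood at 27.3, 49.2, 58.0 and 32.1 CPM in parental tumours 1 to 4 and at 11.9, 12.9, 20.9 and 23.3 CPM in knockout tumours 1 to 4. Parental tumours 2 and 3 were the highest and knockout tumours 1 and 2 the lowest, and the groups did not overlap. PSMB8 fell by 1.27 on the log2 scale (SE 0.271, 95% interval of the fold change -1.87 to -0.68, edgeR adjusted p = 0.00484), to 41.4% of its parental level. Without parental tumours 2 and 3 the log2 fold change was -0.80 (edgeR adjusted p = 0.0310).

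PSMB10, the trypsin-like subunit, fell by a similar factor from a much lower level. Its values were 2.64, 4.64, 4.96 and 2.55 CPM in parental and 1.31, 1.76, 1.49 and 1.73 CPM in knockout tumours, from 51 to 111 and from 28 to 37 counts. The knockout tumours lay close together and all below the lowest parental tumour. PSMB10 fell by 1.23 on the log2 scale (SE 0.265, 95% interval -1.81 to -0.65, edgeR adjusted p = 0.00519). Without parental tumours 2 and 3 its log2 fold change was -0.73 (edgeR adjusted p = 0.0385).

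PSMB9, the caspase-like position of the immunoproteasome, could not be called. It stood at 0.725, 6.64, 5.00 and 1.06 CPM in parental tumours (14, 136, 112 and 25 counts) and at 1.40, 1.27, 1.49 and 2.61 CPM in knockout tumours (30, 26, 32 and 56 counts). Parental tumours 2 and 3 lay above all knockout tumours, and parental tumours 1 and 4 lay below all of them. The log2 fold change of -0.98 had a 95% interval from -2.29 to 0.33 (edgeR adjusted p = 0.256), and it was 0.90 without parental tumours 2 and 3 (adjusted p = 0.0978) and -0.39 with the leukocyte score described further on as a covariate (adjusted p = 0.483). The direction for PSMB9 therefore rested on 2 tumours.

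**Figure D2:**
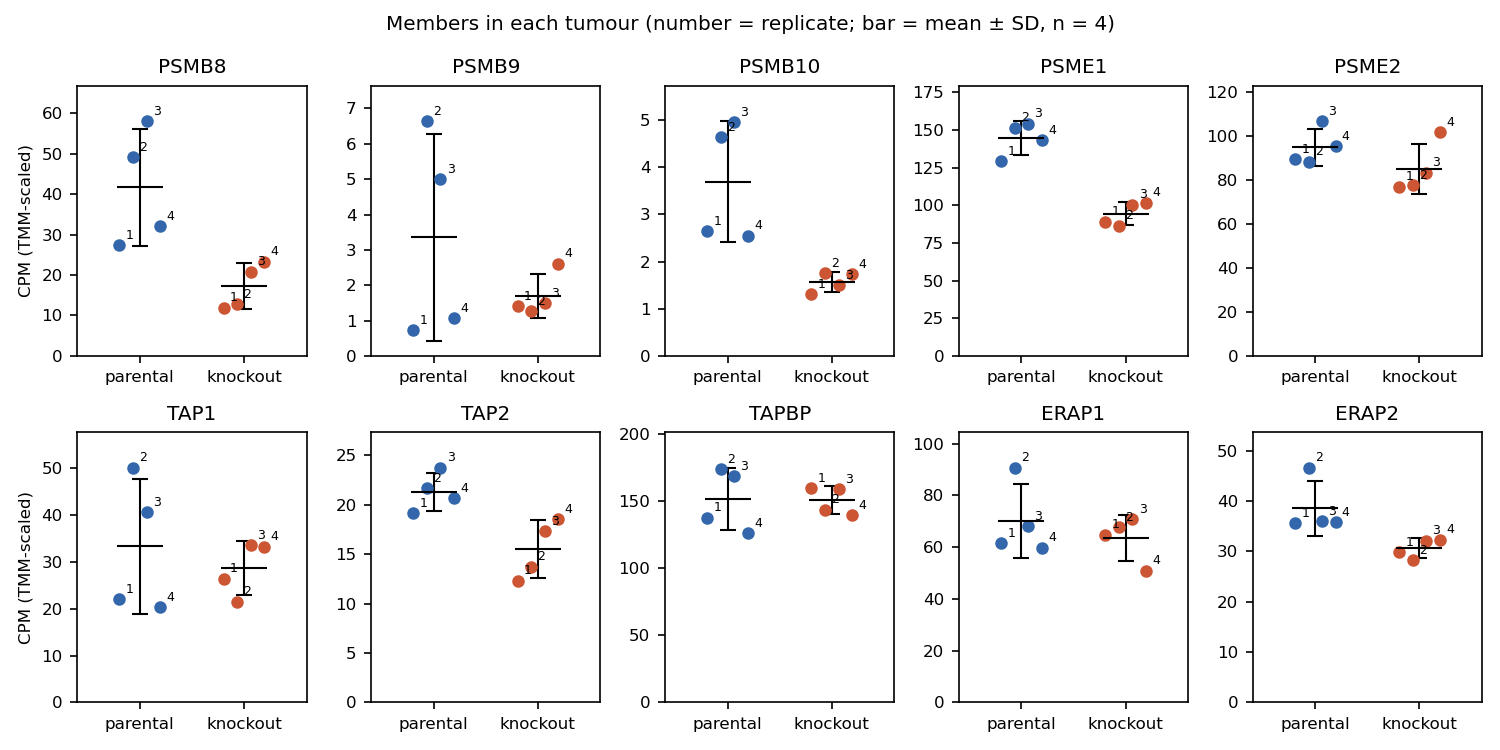
TMM-scaled CPM of each of the 10 genes in each tumour (points, numbered by replicate), with the mean ± SD of the 4 tumours of a group as bars. For PSMB8, PSMB10, PSME1, TAP2 and ERAP2 all knockout points lie below all parental points, and for PSMB9 and TAP1 parental tumours 2 and 3 stand above the rest.

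The constitutive subunits that these 3 replace were not called in either direction. PSMB5, PSMB6 and PSMB7 had log2 fold changes of 0.07, 0.18 and 0.18 (edgeR adjusted p of 0.558, 0.214 and 0.132). Levels of different genes were set side by side per kilobase of exon. The length used merges all annotated exons of a gene and not those of the transcripts present, so these levels are approximate. PSMB8 stood at 13.9 ± 4.80 and 5.75 ± 1.90 CPM per kb in parental and knockout tumours, while PSMB5 stood at 80.8 ± 6.48 and 85.1 ± 4.34 (SD, n = 4 each). PSMB10 stood at 2.0 ± 0.690 and 0.848 ± 0.114 CPM per kb beside 57.6 ± 4.56 and 65.3 ± 2.99 for PSMB7. PSMB9 was lowest in both groups, at 1.09 ± 0.952 and 0.552 ± 0.202 CPM per kb beside 56.4 ± 3.97 and 64.0 ± 8.0 for PSMB6. In these tumours the constitutive subunits were thus, by this measure, the more abundant transcripts in both groups.

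The ratio of inducible to constitutive counts within each library needs no scaling between libraries. PSMB8 counts were 19.6%, 36.6%, 42.4% and 20.1% of PSMB5 counts in parental tumours and 8.01%, 9.08%, 14.0% and 14.5% in knockout tumours, with no overlap. The log2 ratio fell from -1.84 ± 0.576 to -3.18 ± 0.435 (SD, n = 4 each), a difference of -1.34 (exact two-sided permutation p = 0.0286, the smallest that 4 against 4 tumours can give; 0.0381 after Benjamini-Hochberg adjustment over 4 ratios). PSMB10 over PSMB7 fell from -4.85 ± 0.593 to -6.20 ± 0.25, a difference of -1.35 (exact permutation p = 0.0286, adjusted p = 0.0381), again with no overlap. With 1 knockout tumour left out, the exact permutation p was 0.0571 for PSMB8 over PSMB5 without knockout tumour 1 (difference -1.19) and for PSMB10 over PSMB7 without any of the 4 (differences of -1.24 to -1.43).

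PSMB9 over PSMB6 differed by less than its spread. The log2 ratio was -5.16 ± 1.66 in parental and -5.81 ± 0.308 in knockout tumours (n = 4 each, exact permutation p = 0.429), and the percentages ran from 0.893% to 8.38% and from 1.57% to 2.45%. Without parental tumours 2 and 3 the differences for PSMB8 and PSMB10 were -0.85 and -0.84, and that for PSMB9 was 0.77; with 2 against 4 tumours the smallest possible p is 0.0667.

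**Figure D3:**
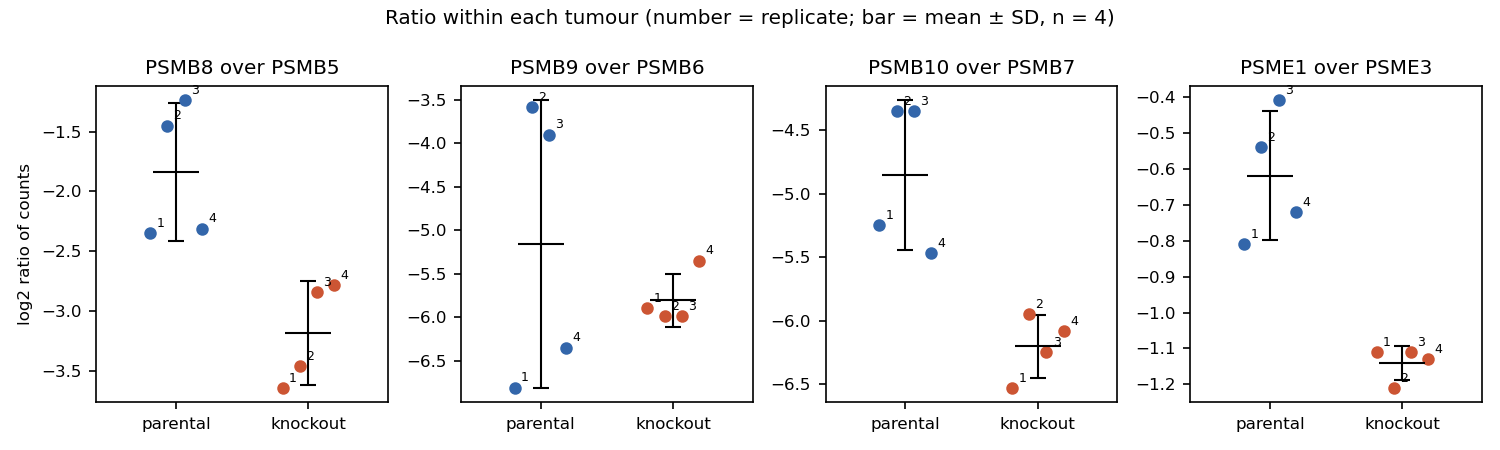
Log2 ratio of counts of an inducible gene over its constitutive counterpart in each tumour (points, numbered by replicate), with mean ± SD of 4 tumours; the axes differ between panels and do not start at 0. Knockout tumours lie below all parental tumours for PSMB8 over PSMB5, PSMB10 over PSMB7 and PSME1 over PSME3, while PSMB9 over PSMB6 overlaps.

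Of the 2 subunits of the PA28 activator, which interferon-gamma raises together, PSME1 fell and PSME2 was not called. PSME1 (PA28 alpha) stood at 129, 152, 154 and 143 CPM in parental and at 89.2, 86.4, 100.4 and 101.7 CPM in knockout tumours. The groups were well apart, and the spread within each was small. Its log2 fold change was -0.61 (SE 0.0904, 95% interval -0.81 to -0.42), with the smallest edgeR adjusted p of the 10 genes, 0.000459.

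PSME2 (PA28 beta) stood at 89.4, 88.3, 106.7 and 95.3 CPM in parental and at 77.0, 77.7, 83.3 and 101.6 CPM in knockout tumours. Knockout tumour 4 lay above 3 of the parental tumours, so the groups overlapped. The log2 fold change was -0.16 (95% interval -0.40 to 0.07, edgeR adjusted p = 0.299). The difference between the partners was then tested, a comparison chosen after the values were seen: the log2 ratio of PSME1 to PSME2 went from 0.61 ± 0.117 to 0.16 ± 0.115 (n = 4 each), a difference of -0.45 (exact permutation p = 0.0286, 0.114 after adjustment over 4 partner pairs), lower in all 4 knockout tumours than in any parental tumour.

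Other activators of the core particle were compared with PSME1. PSME3 (PA28 gamma, the nuclear homologue that interferon does not induce) had a log2 fold change of -0.09 (edgeR adjusted p = 0.461), and the log2 ratio of PSME1 to PSME3 fell from -0.62 ± 0.179 to -1.14 ± 0.0481 (n = 4 each, exact permutation p = 0.0286, adjusted p = 0.0381). PSME4 (PA200, another core activator) also fell, from 154 to 198 CPM in parental to 123 to 132 CPM in knockout tumours, with a log2 fold change of -0.43 (edgeR adjusted p = 0.00606). PSME1 was thus not the only activator gene that fell.

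TAP1 and TAP2 encode the 2 chains of a single pump, and of these TAP2 fell and TAP1 was not called. TAP2 stood at 19.2, 21.7, 23.8 and 20.7 CPM in parental and at 12.3, 13.7, 17.3 and 18.6 CPM in knockout tumours, with the highest knockout tumour just under the lowest parental tumour. TAP2 fell by 0.46 on the log2 scale (SE 0.139, 95% interval -0.77 to -0.15, edgeR adjusted p = 0.0300). This call was lost without parental tumour 3 (adjusted p = 0.0735), knockout tumour 1 (0.0860) or knockout tumour 2 (0.0899), without parental tumours 2 and 3 together (-0.37, adjusted p = 0.116), and under upper-quartile scaling (-0.42, adjusted p = 0.0543).

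TAP1 stood at 22.1, 50.1, 40.6 and 20.3 CPM in parental and at 26.4, 21.5, 33.5 and 33.2 CPM in knockout tumours. Parental tumours 2 and 3 were the highest of all, as they were for PSMB8, PSMB9, PSMB10, PSME1, TAP2, TAPBP and ERAP2. For TAP1 the other parental tumours lay at the level of the lowest knockout tumour. The log2 fold change was -0.21 (95% interval -0.81 to 0.38, edgeR adjusted p = 0.601). It was 0.05 without parental tumour 2 and 0.43 without parental tumours 2 and 3 (adjusted p = 0.0914). The log2 ratio of TAP2 to TAP1 differed by -0.34 between the groups (exact permutation p = 0.314, also after adjustment), so a difference between the 2 transporter genes was not shown.

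Tapasin was not called, and its 95% interval was narrower than that of TAP1. TAPBP stood at 138, 174, 169 and 126 CPM in parental and at 160.0, 144, 159 and 139.8 CPM in knockout tumours, and the knockout values lay inside the parental range. The log2 fold change was -0.01 with a 95% interval from -0.26 to 0.24 (edgeR adjusted p = 0.965), and its sign changed under upper-quartile scaling (0.03). Per kilobase, TAPBP ranged from 24.9 to 34.4 CPM per kb in parental and from 27.6 to 31.6 in knockout tumours, above the 4.23 to 10.4 and 4.47 to 6.97 of TAP1 and the 3.0 to 3.72 and 1.93 to 2.91 of TAP2.

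Of the aminopeptidases, ERAP2 fell slightly and ERAP1 was not called. ERAP2 stood at 35.7, 46.6, 36.0 and 35.8 CPM in parental and at 29.9, 28.2, 32.2 and 32.4 CPM in knockout tumours, without overlap. ERAP2 fell by 0.33 on the log2 scale (SE 0.108, 95% interval -0.57 to -0.09, edgeR adjusted p = 0.0422). The call was close to the threshold: it was lost without parental tumour 2 (-0.23, adjusted p = 0.0889), without knockout tumour 1, 2, 3 or 4 (adjusted p of 0.105, 0.119, 0.0711 and 0.0541), without parental tumours 2 and 3 together (0.118), and under upper-quartile scaling (0.0750).

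ERAP1 stood at 61.5, 90.7, 68.1 and 59.8 CPM in parental and at 64.9, 67.6, 70.8 and 50.9 CPM in knockout tumours. Parental tumour 2 was the highest and knockout tumour 4 the lowest, with the other 6 tumours intermingled. The log2 fold change was -0.14 (95% interval -0.46 to 0.18, edgeR adjusted p = 0.519). It was 0.0081 without parental tumour 2. The log2 ratio of ERAP2 to ERAP1 differed by -0.19 (exact permutation p = 0.200, adjusted p = 0.314). It differed by -0.32 without knockout tumour 4 (exact permutation p = 0.0286, unadjusted) and by -0.12 without knockout tumour 2 (exact permutation p = 0.400).

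**Figure D4:**
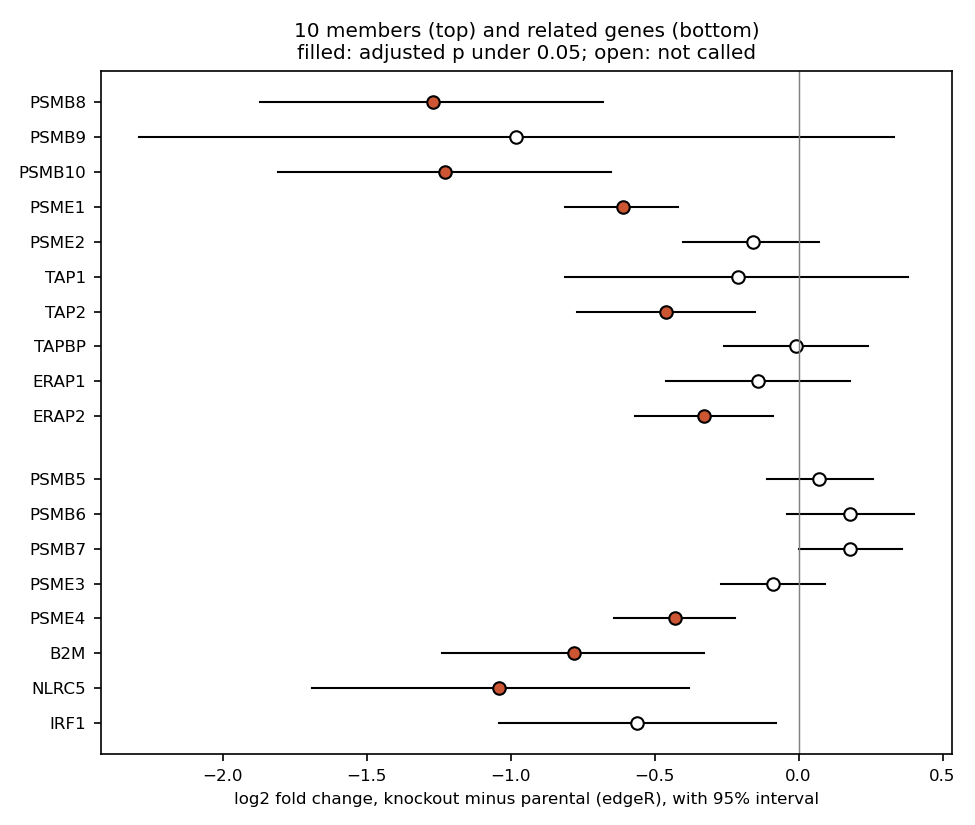
Log2 fold change, knockout minus parental, with its 95% interval from edgeR for the 10 genes (top) and 8 related genes (bottom); filled points had an adjusted p under 0.05. PSMB8 and PSMB10 lie near -1.2, while PSMB5, PSMB6 and PSMB7 lie between 0.07 and 0.18.

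The rest of the proteasome and of the loading pathway was counted from lists of related genes. Of all genes tested, 27% were called, 14.1% lower and 13% higher. Over the standard 20S core, the 19S particle and the assembly factors together, 40 genes were tested and 1 was called, PSMD6 of the 19S particle (log2 fold change -0.40, edgeR adjusted p = 0.0340); their median was 0.01. None of the 3 constitutive catalytic subunits, the 11 other core subunits or the 5 assembly factors was called. Of 6 further loading chaperones, 2 fell: calreticulin, CALR (-0.30, edgeR adjusted p = 0.0114), and the tapasin-related peptide editor TAPBPL (-0.74, adjusted p = 0.0174), although TAPBPL overlapped between the groups. Of 9 other peptidases, 1 fell, DPP3 (-0.30, adjusted p = 0.0169). Without knockout tumour 1 and without knockout tumour 2, TAPBPL (adjusted p of 0.0528 and 0.0516) and DPP3 (0.0590 and 0.0608) were not called. Nor were they without parental tumours 2 and 3, where TAPBPL was at -0.35 (adjusted p = 0.134) and DPP3 at -0.28 (0.0552). PSMD6 was not called without any single one of parental tumours 3 and 4 or the 4 knockout tumours (adjusted p of 0.0600 to 0.0863).

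Class I molecules are what these genes supply with peptide. Of 5 class I chains tested, B2M fell and the other 4 were not called, with a median log2 fold change of -0.75. Among all genes tested, 27% were called. B2M, the light chain, stood at 319, 643, 531 and 355 CPM in parental and at 230.0, 237, 299 and 307 CPM in knockout tumours, a log2 fold change of -0.78 (edgeR adjusted p = 0.0155). Without parental tumour 1 the number of class I chains called was 3 (22.7% of all genes), and without parental tumour 4 it was 4 (25.5% of all genes). The B2M call was lost without knockout tumour 1 (adjusted p = 0.0501) and without parental tumours 2 and 3 (-0.34, adjusted p = 0.0861).

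Among 18 regulators of interferon and class I genes, 2 fell and 3 rose, where 27% of all genes tested were called (14.1% lower and 13% higher). NLRC5, the class I transactivator, stood at 11.8, 23.4, 23.2 and 10.5 CPM in parental and at 6.21, 6.44, 8.73 and 12.2 CPM in knockout tumours, and knockout tumour 4 overlapped with the lower parental pair. For NLRC5 the change was -1.04 in log2 units (SE 0.300), with an edgeR adjusted p of 0.0246. Without parental tumours 2 and 3 it was -0.41 (adjusted p = 0.229), and the call was also lost without parental tumour 2 (0.0538), parental tumour 3 (0.0666) or knockout tumour 1, 2 or 3 (0.0732, 0.0734 and 0.0544).

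RFXANK, a subunit of the RFX complex that binds class I promoters, fell by 0.31 (edgeR adjusted p = 0.0127), and was at -0.29 without parental tumours 2 and 3 (adjusted p = 0.0502). The receptor chain IFNGR1 rose by 0.45 (adjusted p = 0.0136), and the NF-kappaB genes RELB and NFKB2 rose by 0.47 (0.0353) and 0.52 (0.0406), calls that were lost without any single one of parental tumours 1, 3 and 4 or knockout tumours 1, 2 and 3 (adjusted p of 0.0594 to 0.112). IRF1, the factor that binds many IRF elements, had a log2 fold change of -0.56 (adjusted p = 0.0812) and was not called. Without parental tumour 1 (-0.69, adjusted p = 0.0487) or 4 (-0.71, adjusted p = 0.0256) it was called, while it was -0.34 (adjusted p = 0.217) without parental tumour 3 and -0.08 (adjusted p = 0.697) without parental tumours 2 and 3. Over all 81 related genes tested, 11 were called, 8 lower and 3 higher, where 27% of all genes tested were called. The number of related genes called was 4 without knockout tumour 1, 6 without knockout tumour 2 and 7 without knockout tumour 3. In those fits 21.2%, 21.6% and 22% of all genes were called.

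Most of the genes varied together from tumour to tumour in the parental group, and less uniformly in the knockout group. Parental tumours 2 and 3 both lay above parental tumours 1 and 4 for 9 of the 10 genes, all but PSME2. Their mean was 6.51 times that of parental tumours 1 and 4 for PSMB9, 2.14 times for TAP1, 1.85 for PSMB10 and 1.80 for PSMB8, but only 1.12 for PSME1, 1.14 for TAP2 and 1.06 for PSME2. In the knockout group, tumour 4 was the highest for 6 of the 10 genes and the lowest for 2, TAPBP and ERAP1. After subtraction of each group's mean, 42 of the 45 pairs of genes had a Pearson correlation above 0 over the 8 tumours, with a median of 0.57. The share over all pairs of tested genes is not given here, so this count does not show a trait particular to the set.

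The closest pairs were PSMB8 with PSME1 (r = 0.95), PSMB9 with TAP1 (0.93), PSMB8 with TAP2 (0.91) and PSMB9 with PSMB10 (0.91), and the most opposed pair was PSME2 with ERAP1 (-0.58). These values describe 8 libraries that share scaling, and the correlations were not recomputed without single tumours. They pool both groups, whose spread differed by gene. The SD of log2 CPM was 1.52 in parental and 0.45 in knockout tumours for PSMB9, but 0.13 and 0.28 for TAP2. Among 10247 other genes at an average log2 CPM of at least 3, the 5 that followed the set most closely, by mean correlation with its members over the 8 tumours, were TMEM62 (0.75), CTNNBIP1 (0.75), SLC38A7 (0.74), ZNF3 (0.74) and DYNLRB1 (0.73). The median candidate was at -0.07. The mean correlation of a member with the other members ran from 0.26 (ERAP1) to 0.71 (TAP1), below the values of these 5 genes. Of these 5, CTNNBIP1, an inhibitor of beta-catenin signalling, was called between the groups (log2 fold change -0.30, edgeR adjusted p = 0.0392), but not without parental tumour 2 or 3 or knockout tumour 1, 2 or 3 (adjusted p of 0.0627 to 0.116). The other 4 were not called, and ZNF3 (-0.26, adjusted p = 0.0502) was called without parental tumour 1 (0.0358) or 4 (0.0387).

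Leukocyte markers were highest in the same parental tumours as the genes, while in the knockout group the match differed from gene to gene. The 16 markers, of which 13 passed the filter and none was at 0 throughout, summed to 17.6, 93.8, 74.3 and 14.1 CPM in parental and to 45.8, 38.2, 35.9 and 26.1 CPM in knockout tumours. Among the parental tumours, all 16 were highest in tumour 2 or 3. In the knockout group the sum was lowest in tumour 4, which was the highest for 6 of the 10 genes and the lowest for 2, TAPBP and ERAP1. The mean log2 CPM of the 13 markers served as a leukocyte score, and the deviations of TAPBP (r = 0.94), PSMB9 (0.84), PSMB10 (0.84), TAP1 (0.80) and ERAP1 (0.77) from their group means ran with it over the 8 tumours, while those of TAP2 (0.10) and PSME2 (-0.09) did not. Whether these reads came from human or from mouse leukocytes cannot be told apart here, since a step that removes mouse reads was not given in the sources used here.

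With the leukocyte score as a covariate the same 5 genes were called, with log2 fold changes of -1.19 for PSMB8, -1.15 for PSMB10, -0.61 for PSME1, -0.46 for TAP2 and -0.32 for ERAP2 (edgeR adjusted p of 0.00375, 0.00121, 0.000353, 0.0285 and 0.0293). The fit with this covariate called 32.4% of all genes. Without parental tumours 2 and 3, a check added after the data were seen, PSMB8, PSMB10 and PSME1 were called (PSME1 at -0.54, edgeR adjusted p = 0.00364). In that check 29.3% of all genes were called. Fibroblast markers summed to 179 to 607 CPM in parental and 343 to 603 CPM in knockout tumours, mostly from COL1A1, and endothelial markers to 7.41 to 18.3 and 9.20 to 15.5 CPM. Single markers, picked after their values were seen, lay apart between the groups: LUM was at 0.104 to 0.638 CPM in parental and 10.1 to 15.5 CPM in knockout tumours, and VWF at 1.27 to 3.08 and 0.280 to 0.439 CPM. The other fibroblast and endothelial markers that passed the filter, COL1A1, COL1A2, COL3A1 and PECAM1, overlapped between the groups. PECAM1 was at 5.14 to 12.9 CPM in parental and 7.99 to 14.6 CPM in knockout tumours. Skeletal muscle markers were highest in parental tumour 2 at 34.8 CPM and in knockout tumour 4 at 15.7 CPM. The part of these 3 lists in the results was not tested.

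**Figure D5:**
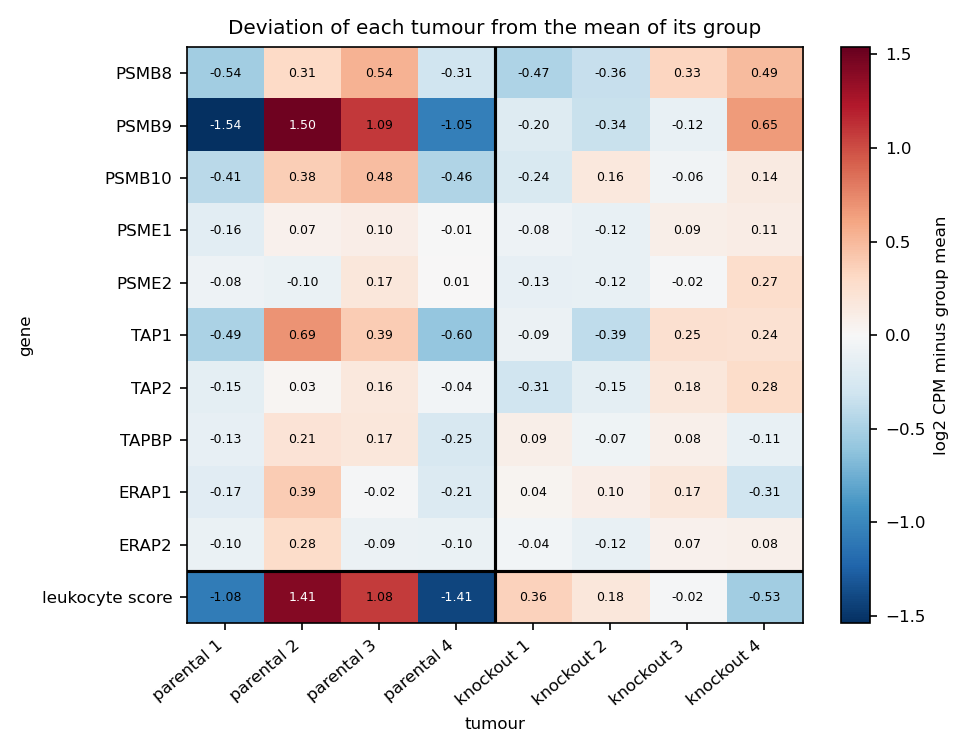
Deviation of each tumour from the mean of its group, in log2 CPM, for the 10 genes and, in the bottom row, the leukocyte score (mean log2 CPM of 13 markers). Parental tumours 2 and 3 are above their group mean in most rows (PSMB9 at 1.5 and 1.09). Knockout tumour 4 is above its mean for PSMB9 at 0.65 and below it for ERAP1 at -0.31, and its leukocyte score is below.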

How the data were processed

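RNA sequencing libraries of 4 parental and 4 SMARCA4 knockout H2122 xenografts, grouped by the genotype and title of each sample, were used as deposited. Per the submitters' processing notes, the tools were TopHat2 2.1.1 and HTSeq 0.11.0 with the hg38 build; the annotation, strand and counting options and any removal of mouse reads were not given in the sources used here. Each deposited file lists whole-number read counts by gene symbol, and the 5 summary lines per file (14.8% to 20.9% of reads), which name no gene, stayed out of library sizes and tests. Total gene counts of 19785922 to 23191698 set the precision, and no 2 libraries of a group agreed within sampling noise.

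Counts were fitted with edgeR 4.0.16 in R 4.3.3: filterByExpr (minimum count 10, minimum total 15), TMM scaling and the quasi-likelihood F-test without covariate, Benjamini-Hochberg adjusted over 16219 genes. The SE of a log2 fold change was derived from its F statistic. Ratios within a library used counts plus 0.5 and an exact two-sided permutation test. Alternatives were RLE, upper-quartile and total scaling, other filters (none, or 1 CPM in 4 tumours), DESeq2 1.42.0, limma-voom (limma 3.58.1), a replicate block, a leukocyte score covariate and leaving out tumours. The fit was tested on simulated counts. Promoter letters are from RefSeq, and positions and exon lengths from GENCODE 29, matched by symbol; all 10 members matched both.

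The members, lists and rules were chosen with earlier results of these data known. Named are the 10 members, SMARCA4, 8 related genes (PSMB5, PSMB6, PSMB7, PSME3, PSME4, NLRC5, IRF1 and B2M), up to 3 called genes per list and direction, and the 5 genes most alike to the members. Single cell type markers, NAPSA and NKX2-1 among them, and ratios of partner genes were named after their values were seen. THOP1, a listed peptidase, was not analysed here, and 2 further listed genes are not reported here or counted in their lists.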

Additional observations from a re-analysis of the deposited data

Results flagged for a closer look

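In 70 groups of 4 values checked, 3 had a highest or lowest tumour far from the other 3, and chance alone flags about 1 in 20 such groups. PSMB9 was at 2.61 CPM in knockout tumour 4, against 1.27 to 1.49 CPM in the other knockout tumours, and for the same tumour the log2 ratio of PSMB9 to PSMB6 was -5.35. That tumour had the lowest leukocyte score of its group and the highest sum of skeletal muscle markers (15.7 CPM). ERAP2 was at 46.6 CPM in parental tumour 2, while the other 3 parental tumours lay between 35.7 and 36.0 CPM. Parental tumour 2 had the highest leukocyte score and the highest sum of skeletal muscle markers (34.8 CPM) of its group. The causes were not tested.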

How the results depend on the processing

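The falls of PSMB8, PSMB10 and PSME1 kept their direction and stayed called in all 18 alternatives, with log2 fold changes of -1.45 to -0.80, -1.38 to -0.73 and -0.67 to -0.54; those of TAP2 and ERAP2 did not, and the number of genes called in all ran from 3501 to 5251. Under upper-quartile scaling 3 of the 10 members and 27.2% of all genes were called. TAP2 was then at -0.42 (edgeR adjusted p = 0.0543), ERAP2 at -0.29 (0.0750) and TAPBP at 0.03. TAPBP was at 0.0016 by limma-voom and at 0.01 with the leukocyte score. The fit with that score called 24 of the related genes and 32.4% of all genes, and DESeq2 called 17 and 29.7%. Without 1 tumour, members called numbered 3 to 5 and related genes called 4 to 15, with 21.2% to 28.6% of all genes called. The same fits gave -0.40 to 0.05 for TAP1, -0.56 to -0.36 for TAP2, -0.09 to 0.06 for TAPBP, -0.21 to 0.0081 for ERAP1 and -0.37 to -0.23 for ERAP2. They gave ratios of -1.51 to -1.14 for PSMB8 over PSMB5 and -1.56 to -1.18 for PSMB10 over PSMB7. Without parental tumours 2 and 3, chosen after the data were seen, 3 of the 10 members and 29.3% of all genes were called. Log2 fold changes were then 0.90 for PSMB9, 0.43 for TAP1, -0.37 for TAP2, 0.18 for TAPBP, 0.06 for ERAP1, -0.23 for ERAP2, -0.0033 for PSMB5 and 0.01 for TMEM62. The ratios were then -0.85 (PSMB8 over PSMB5), 0.77 (PSMB9 over PSMB6), -0.84 (PSMB10 over PSMB7) and -0.38 (PSME1 over PSME3), with too few tumours to pass the threshold. The cause of these changes was not tested, beyond the fewer tumours in a fit.

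Replicate numbers are shared by the groups but did not pair the tumours: deviations of same-numbered tumours correlated at -0.19 to 0.09 over 16219 genes, and 1 of 8 tumours correlated best with its own number. With the replicate number as a block, 3871 genes (23.9%) and 4 members were called, ERAP2 was at -0.32 (edgeR adjusted p = 0.0913) and TAPBP at 0.0013. The paired differences of the ratios were -1.34 for PSMB8 over PSMB5, -1.35 for PSMB10 over PSMB7 and -0.52 for PSME1 over PSME3, each at an exact p of 0.125, the smallest that 4 pairs can give. PSMB9 and PSMB10 rest on 14 to 136 counts per library, so small differences in them are not detectable at this depth.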
